A study of Mus musculus with 2 samples.

Results

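The mir-148 and mir-152 family of the mouse consists of 3 miRNA genes, Mir148a, Mir148b and Mir152, which lie at separate loci and give microRNAs with a common seed. The members were taken by symbol from the 2202 miRNA genes of the annotation, by a rule that names them. They were read in microRNA sequencing of hippocampal tissue (labelled as layer of hippocampus) from aged male B6CASTF1/J mice, first-generation hybrids between C57BL/6 and CAST/Ei, at 18 to 20 months and with no treatment named. The series holds 1 group with 2 libraries, numbered as biological replicates 1 and 2, and therefore no contrast between conditions. The replicates have separate tissue entries and the same donor entry, and nothing in the labels says that they came from separate animals, so differences between them may be technical. What could be measured is the level of each member, the make-up of the family and how far the libraries differed.

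A microRNA is cut from a hairpin transcript as a short duplex, and 1 strand of it guides silencing proteins to messenger RNAs that pair with its seed, bases 2 to 8. MicroRNAs with the same seed can act on overlapping sets of targets, so the loci of a family add to a common pool. For this family the guide strand is mainly the 3p arm. It is known as a repressor of the DNA methyltransferase Dnmt1, and miR-148a is known as abundant in liver, where it acts on the low-density lipoprotein receptor and the cholesterol exporter Abca1.

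The mature sequences are shown because the family is defined by them and because they decide whether reads of the members can be told apart. They come from RefSeq (GRCm38.p6, the mm10 assembly), which holds both arms of 3 of 3 members. All are written 5′ to 3′ with the seed in capitals. The 3p arms are:
miR-148a-3p: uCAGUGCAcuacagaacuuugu
miR-148b-3p: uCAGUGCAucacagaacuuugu
miR-152-3p: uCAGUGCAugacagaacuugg
The seed CAGUGCA occurred in these 3 mature microRNAs and in none of the other 1732 in the table. Counted from the 5′ end, miR-148b-3p differs from miR-148a-3p by C9U and U10C. miR-152-3p differs from miR-148a-3p by C9U, U10G and U20G, and it has 21 bases where the others have 22. All members thus share bases 1 to 8, and miR-148b-3p and miR-152-3p also share base 9.

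The 5p arms, which leave the hairpin on the other strand of the duplex, differ more, including within the seed:
miR-148a-5p: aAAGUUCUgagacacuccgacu
miR-148b-5p: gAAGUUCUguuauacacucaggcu
miR-152-5p: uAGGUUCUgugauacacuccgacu
Mir148a and Mir148b have the 5p seed AAGUUCU in common, and no other mature microRNA in the table has it. The miR-152-5p seed AGGUUCU was found in no other mature microRNA of the table. The deposited counts are per gene and join both arms, so no value here belongs to 1 arm.

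The hairpins are shown with both mature arms in capitals, since these are the stretches that reads of mature microRNAs match. In mm10, Mir148a (ENSMUSG00000065505.1) lies at chr6:51269812-51269910 on the minus strand, Mir148b (ENSMUSG00000065560.1) at chr15:103285125-103285221 on the plus strand and Mir152 (ENSMUSG00000065515.1) at chr11:96850393-96850465 on the plus strand.
Mir148a: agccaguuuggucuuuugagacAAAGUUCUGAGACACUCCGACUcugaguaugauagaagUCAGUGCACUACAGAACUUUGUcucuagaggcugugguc
Mir148b: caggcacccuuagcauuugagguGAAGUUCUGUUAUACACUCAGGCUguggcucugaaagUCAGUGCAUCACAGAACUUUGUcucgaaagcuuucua
Mir152: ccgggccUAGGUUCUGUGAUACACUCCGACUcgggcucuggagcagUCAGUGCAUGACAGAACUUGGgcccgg
The hairpins have 99, 97 and 73 bases in this order. Predicted folding with RNAfold gave minimum free energies of -41.0 kcal/mol for Mir148a, -30.9 kcal/mol for Mir148b and -43.5 kcal/mol for Mir152, the shortest of the hairpins. In these predictions 19 of the 22 bases of miR-148a-3p, 17 of the 22 of miR-148b-3p and 19 of the 21 of miR-152-3p were paired.

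The hairpins are related but are not copies of each other. The longest stretch that hairpins of the family share is 15 bases (Mir148a with Mir148b), against 12 for Mir148a with Mir152 and 11 for Mir148b with Mir152. With hairpins outside the family the longest shared stretch was 11 bases for Mir148a and Mir152 and 12 bases for Mir148b, over 1002 other RefSeq hairpins. Each of the 6 mature sequences occurred in the annotated transcripts of its own gene only. A full-length read of any arm therefore matches 1 annotated miRNA gene. By contrast, reads of microRNAs with identical copies at several loci can map to several places, and reads that did so entered no gene count. Copies elsewhere in the genome were not searched.

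The libraries held 3758318 and 5598792 sense counts over all miRNA genes, from 10594081 and 16131923 reads, and 51.5% and 46.7% of the reads mapped to several places and entered no gene. The neuron markers fixed for the tissue (6 of 6 detected) summed to between 50764 and 52344 counts per 1000000 counted reads (CPM), and the markers of astrocytes, oligodendrocytes, endothelial and mural cells, microglia and choroid plexus were all detected too. The liver marker Mir122 had 23.9 and 47.5 CPM in replicates 1 and 2, and the red cell markers (2 of 2 detected) summed to 52.4 and 77.0 CPM. Of 4 muscle markers, 3 were at 0 in both libraries and Mir206 had 52.2 and 79.7 CPM. Copies at other loci were not sought for the muscle markers, nor for most of the other markers, including most neuron markers. A marker with such copies can lose its reads as multiply mapped. A count of 0 thus does not show absence, and a sum over markers can be too low.

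All members were detected, at low levels. Mir148b was the highest, Mir148a followed and Mir152 was the lowest, in both libraries. Mir148b had 261 counts in replicate 1 and 460 in replicate 2, or 69.4 CPM (Wilson 95% interval 61.5 to 78.4) and 82.2 CPM (75.0 to 90.0), with a mean of 75.8 ± 8.99 CPM (SD, n = 2). Its interval in replicate 1 overlapped that in replicate 2, which is not a test of equal levels. Intervals here reflect the counting error of reads alone. The reads carry no molecular identifiers and need not come from separate molecules, so the intervals may be too narrow.

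Mir148a had 144 counts in replicate 1 and 419 in replicate 2. In CPM this was 38.3 (interval 32.5 to 45.1) and 74.8 (68.0 to 82.4), with a mean of 56.6 ± 25.8 CPM (SD, n = 2). Replicate 2 lay above replicate 1, and the intervals did not overlap. Mir152 had 63 counts in replicate 1 and 182 in replicate 2. In CPM this was 16.8 (interval 13.1 to 21.4) and 32.5 (28.1 to 37.6), with a mean of 24.6 ± 11.1 CPM (SD, n = 2), and these intervals did not overlap either.

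**Figure D1:**
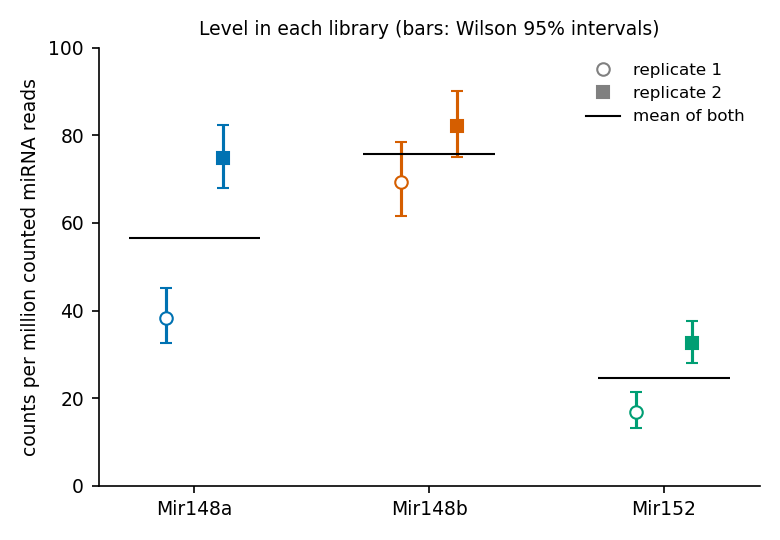
Level of each member in CPM (vertical axis), with replicate 1 as open circles, replicate 2 as filled squares, the mean of both as a line, and Wilson 95% intervals as bars. Mir148a and Mir152 stand apart between the libraries, at 38.3 and 74.8 CPM and at 16.8 and 32.5 CPM, while the intervals of Mir148b overlap. Overlap is not a test of equal levels. In CPM, Mir148b was 1.18-fold higher in replicate 2 (exact 95% interval 1.01 to 1.38). With TMM scaling, described in the text, Mir148b is slightly lower in replicate 2.

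In CPM, neighbours in this order were not all separated by the spread between libraries. The CPM of Mir148a in replicate 2 (74.8) was above that of Mir148b in replicate 1 (69.4), so these members overlapped across libraries on this scale. With TMM scaling, described below, Mir148a in replicate 2 lay under Mir148b in both libraries, so the overlap depends on the scaling. Mir152 stayed below Mir148a in every pairing, with a highest value of 32.5 CPM against a lowest of 38.3 CPM. The mature lengths are 21 to 24 bases, so CPM were not divided by length.

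Each of these counts was in the sense column. The count without regard to strand was the same for each member and library, and the opposite-strand count was 0 for each. A count of 0 still allows an expected count of about 3 (one-sided 95% bound). This is the equivalent of 0.798 and 0.536 CPM in replicates 1 and 2. No annotated gene lies on the other strand of any of the hairpins.

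Ratios within a library do not depend on how the libraries are scaled, and they showed a shift in the make-up of the family. Mir148b gave 55.8% (Wilson 95% interval 51.2 to 60.2%) of the 468 family counts in replicate 1 and 43.4% (40.4 to 46.4%) of the 1061 in replicate 2. Mir148a gave 30.8% (26.8 to 35.1%) and 39.5% (36.6 to 42.5%). For both members the intervals of the libraries did not overlap. Mir152 gave 13.5% (10.7 to 16.9%) and 17.2% (15.0 to 19.5%), and its intervals overlapped.

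Mir148a and Mir152 kept nearly the same proportion to each other. There were 2.29 counts of Mir148a per count of Mir152 in replicate 1 (exact 95% interval 1.69 to 3.12) and 2.30 in replicate 2 (1.93 to 2.76). Mir148b per count of Mir148a was 1.81 in replicate 1 (1.47 to 2.24) and 1.10 in replicate 2 (0.960 to 1.26), and these intervals did not overlap. Mir148b per count of Mir152 was 4.14 (3.14 to 5.55) and 2.53 (2.12 to 3.02), again without overlap. Mir148b thus changed its proportion to both other members. With 2 libraries the same change cannot be sought in a further sample.

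**Figure D2:**
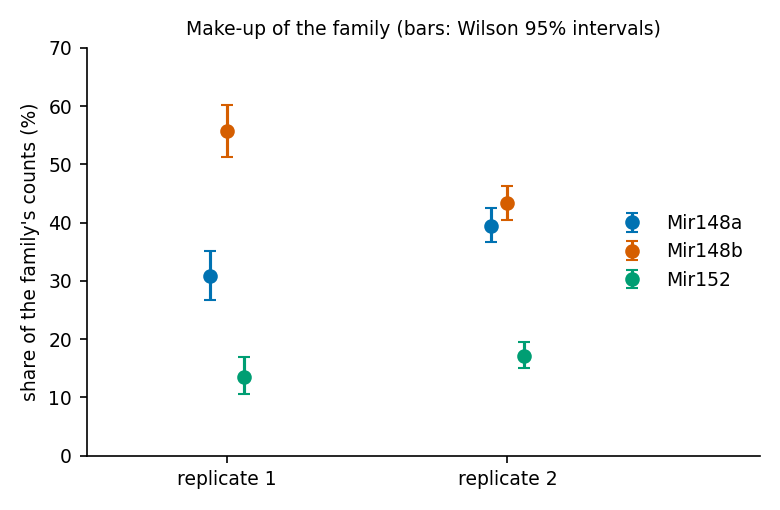
Share of the family's counts held by each member (vertical axis, percent) in replicates 1 and 2, with Wilson 95% intervals as bars. Mir148b goes from 55.8% in replicate 1 to 43.4% in replicate 2, and Mir148a from 30.8% to 39.5%, where its interval meets that of Mir148b.

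The levels were then compared between the libraries for all 384 detected genes, those with at least 10 counts in both, by an exact two-sided binomial test on library sizes scaled by edgeR's trimmed mean of M-values (TMM), with Benjamini-Hochberg adjustment over the 384. On this scale Mir148a was 1.57-fold higher in replicate 2 (exact 95% interval 1.29 to 1.91, log2 0.65, adjusted p = 3.87e-06 by the exact binomial test). Mir152 was 1.56-fold higher in replicate 2 (1.16 to 2.11, log2 0.64, adjusted p = 0.00349 by the exact binomial test). Mir148b had a level in replicate 1 that was 1.05 times that in replicate 2 (0.901 to 1.23, log2 -0.07 for replicate 2 over replicate 1), which did not pass (adjusted p = 0.581 by the exact binomial test). Thus 2 of the 3 members were called, both higher in replicate 2, where 65.1% of all tested genes were called and 31.0% were called higher in replicate 2. A call is close to the usual outcome in this pair of libraries and is no mark of the family.

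The scaling decides the direction for Mir148b. Between CPM and TMM scaling the ratio of the libraries changes 1.25-fold, and the median log2 ratio of replicate 2 over replicate 1 over detected genes was -0.01 with TMM and 0.31 with total counts. In CPM, Mir148b was 1.18-fold higher in replicate 2 (exact 95% interval 1.01 to 1.38, adjusted p = 0.0437 by the exact binomial test with total-count scaling). Mir148a was then 1.95-fold and Mir152 1.94-fold higher. All 3 members were called higher in replicate 2 with total-count scaling, against 50.8% of all tested genes called in that direction.

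The test compares 2 libraries and covers counting error. Over all detected genes the biological coefficient of variation (edgeR common dispersion) was 34.4%, and the median difference between the libraries was 1.36-fold. The differences of Mir148a and Mir152 were larger than this median, yet 32.0% and 33.3% of detected genes differed at least as far on the TMM scale. For Mir148b, 89.6% did.

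Markers of several cell types also differed between the libraries, in both directions, by the same exact binomial test on the TMM scale. Of all tested genes, 65.1% were called on this scale, 34.1% higher in replicate 1 and 31.0% higher in replicate 2. With total-count scaling 50.8% were called higher in replicate 2. Markers called higher in replicate 2 with TMM, as were Mir148a and Mir152, included the liver marker Mir122 (1.59-fold) and the muscle marker Mir206 (1.23-fold). They also included 2 of 3 choroid plexus and ependyma markers, Mir1298 (4.25-fold) and Mir204 (1.10-fold). Of the oligodendrocyte markers, Mir338 was 1.79-fold higher in replicate 2 and Mir219a-2 was 1.33-fold higher in replicate 1. Of the red cell markers, Mir451a was 1.28-fold higher in replicate 2, while Mir144 did not pass, with 12.8 and 13.6 CPM. All 3 endothelial and mural markers were called higher in replicate 1, from 1.38-fold for Mir126a to 3.20-fold for Mir145a. Both astrocyte markers, 4 of 6 neuron markers and 2 of 3 microglia and leukocyte markers were likewise called higher in replicate 1, but with total-count scaling 4 of 6 neuron markers and 1 of 2 astrocyte markers were called higher in replicate 2, and 1 of the microglia and leukocyte markers was called, higher in replicate 1. The part of these cells in the values of Mir148a and Mir152 was not tested.

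**Figure D3:**
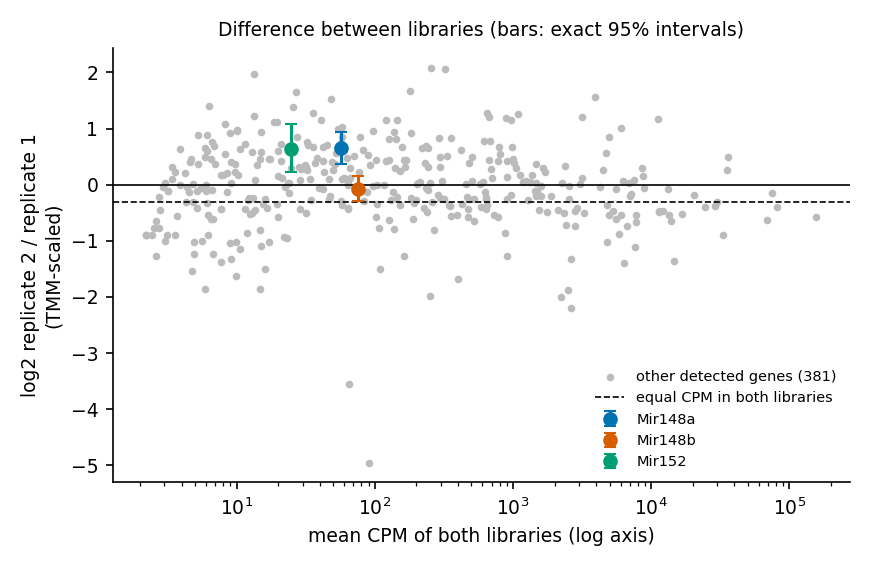
Log2 ratio of replicate 2 over replicate 1 with TMM scaling (vertical axis) against the mean CPM (log axis) for the 384 detected genes; bars on the members are exact 95% intervals, the solid line marks no difference on the TMM scale and the dashed line equal CPM. Mir148a (0.65) and Mir152 (0.64) lie above both lines within the cloud of other genes, and Mir148b (-0.07) lies between the lines, so its direction turns with the scaling.

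Among all 2202 miRNA genes the members took ranks 204 (Mir148b), 222 (Mir148a) and 259 (Mir152) by mean CPM. The median detected gene had 101.9 CPM, and 52.9%, 57.6% and 67.2% of detected genes were higher than Mir148b, Mir148a and Mir152. The family as a whole summed to 124.5 and 189.5 CPM in the libraries, replicate 2 being the higher, with a mean of 157 ± 45.9 CPM (SD, n = 2).

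Other conserved families with several loci had far more counts in the same libraries. The mir-29 family, which acts on DNA methyltransferases and matrix genes, summed to 22067 and 23613 CPM, or 177-fold and 125-fold the sum of Mir148a, Mir148b and Mir152 in replicates 1 and 2. The mir-30 family summed to 18849 and 19472 CPM, or 151-fold and 103-fold. The mir-26 family, whose genes also lie in introns of related host genes, summed to 19885 and 9542 CPM, or 160-fold and 50.4-fold. The values of each family lay above those of the 3 members in both libraries. All families were read in the same 2 libraries, and over 2 pairs an exact two-sided permutation test cannot go below p = 0.5, so the difference has no test beyond this order. Some genes of the other families share a mature sequence with a second locus, and reads that map to both enter neither count.

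**Figure D4:**
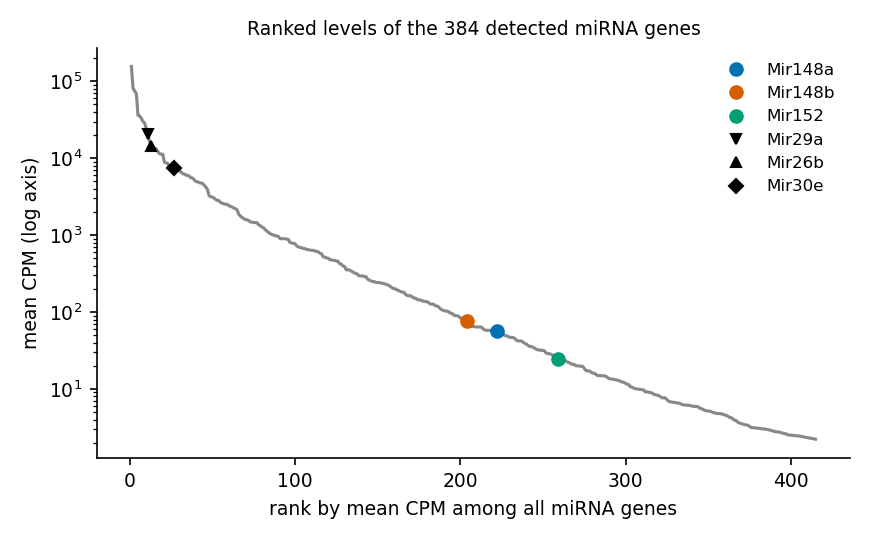
Mean CPM (log axis) of the 384 detected miRNA genes against rank among all miRNA genes (line), with Mir148a, Mir148b and Mir152 as coloured circles and the highest genes of 3 other families as black symbols. The members lie at ranks 204, 222 and 259, while Mir29a, Mir26b and Mir30e lie at ranks 11, 13 and 27.

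The family was also set beside microRNAs linked to chromatin and DNA methylation regulators, a list of 15 genes that includes it. All 15 were detected and 14 were called between the libraries on the TMM scale, 7 higher in each replicate. Of all tested genes, 65.1% were called in either direction, 34.1% with the higher level in replicate 1 and 31.0% with the higher level in replicate 2. The median log2 ratio of the 15 was -0.07, against -0.01 over all tested genes. The highest were Mir29a with 20409 ± 1270 CPM, Mir132, a microRNA induced by neuronal activity, with 16652 ± 1642 CPM, and Mir26b with 14558 ± 7122 CPM (SD, n = 2 each). Mir152 was the lowest of the list by mean CPM and in replicate 1. In replicate 2 it had 32.5 CPM, and genes of the mir-26 family lay below it at 6.97 and 12.5 CPM. Those mir-26 genes share a mature sequence with another gene, and reads that map to both are not counted.

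Genes with nearly the same level in both libraries were sought among the detected genes by Euclidean distance of log2(CPM + 1) over the 2 libraries. For Mir148a they were Mir3072 (37.8 and 76.1 CPM, distance 0.0307), Mir29b-2 (37.3 and 77.3 CPM, distance 0.0613) and Mir200c (36.2 and 71.3 CPM, distance 0.106). Mir29b-2 shares a mature sequence with another gene, and reads that map to both are not counted, so its level may be too low. For Mir152 they were Mir200b (17.0 and 38.0 CPM), Mir6540 (19.4 and 29.8 CPM) and Mir3086 (15.7 and 26.1 CPM), at distances of 0.222 to 0.320. For Mir148b they were Mir296 (62.5 and 91.3 CPM), Mir410 (83.0 and 85.0 CPM) and Mir331 (82.5 and 94.1 CPM), at distances of 0.211 to 0.312. No member of the family was among the 3 nearest of another. Mir200b and Mir200c are microRNAs known from epithelia. With 2 libraries, likeness of this kind says little more than that the levels were similar.

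The loci differ in their hosts. Mir148b lies within the first intron of Copz1 (chr15:103272714-103299868, plus strand), on the same strand and 12411 bases after the annotated start of the gene. Mir152 lies within the first intron of Copz2 (chr11:96849870-96861203, plus strand), 523 bases after its start. Copz1 and Copz2 are paralogues that encode zeta subunits of the coatomer, the coat of vesicles that return from the Golgi apparatus to the endoplasmic reticulum. The hairpins were intronic in 4 of 4 Copz1 transcripts and 3 of 3 Copz2 transcripts that span them. The Copz1 intron has 16159 bases and the Copz2 intron 676. Mir148a overlaps no annotated gene, and the nearest protein-coding gene is Nfe2l3, 162.8 kb away. Host transcripts were not measured in these libraries.

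None of the members has a well-counted neighbour. The nearest annotated miRNA gene was Gm22914 for Mir148a, 351.7 kb away with 0 counts in both libraries. For Mir148b it was Mir6963, 65.2 kb away with 0 counts in both. For Mir152 it was Mir8103, 213.3 kb away with 6 and 2 counts. The members were thus read as single hairpins and not as parts of a counted cluster.

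The loci nonetheless resemble each other in the genes around them, which were examined after the nearest genes had been seen. Each lies near a gene of the Nfe2 family of basic leucine zipper transcription factors: Nfe2l3 at 162.8 kb from Mir148a, Nfe2 at 26.7 kb from Mir148b and Nfe2l1 at 20.4 kb from Mir152. Each also lies near a gene for a heterochromatin protein 1 homologue, Cbx3 at 200.4 kb, Cbx5 at 45.3 kb and Cbx1 at 41.8 kb in the same order. The remaining gene of the Nfe2 family, Nfe2l2, lies on chromosome 2, and no gene of the mir-148 and mir-152 family is annotated on that chromosome.

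**Figure D5:**
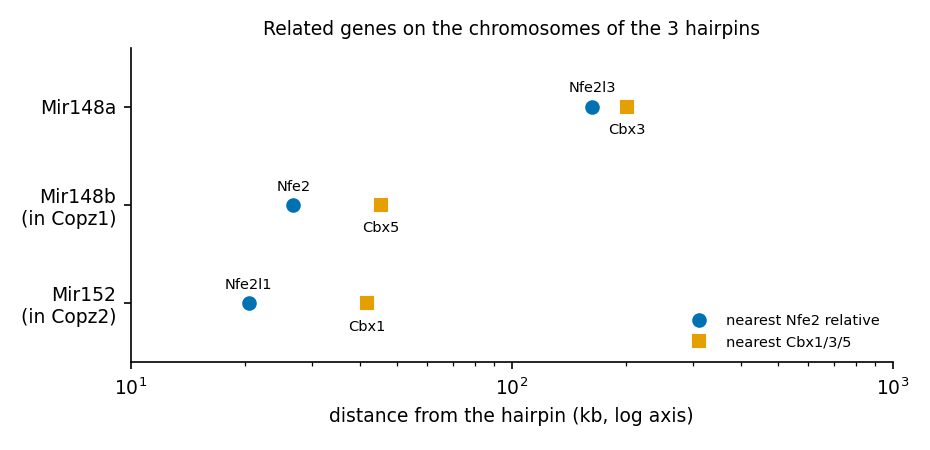
Distance in kb (log axis) from each hairpin to the nearest gene of the Nfe2 family (circles) and to the nearest of Cbx1, Cbx3 and Cbx5 (squares) on the same chromosome. In all 3 rows the order is the same, with distances of 20.4 to 162.8 kb to the Nfe2 relative and 41.8 to 200.4 kb to the Cbx gene.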

How the data were processed

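For each library the authors deposited a table of raw counts, whole numbers of reads assigned to each miRNA gene, below 4 summary lines. The genome was mm10 and the annotation GENCODE M21, per the labels and a text file that accompanies each table. Which aligner and counter were used was not given in the sources used here. Sense counts were read from column 3, which has the larger total of the stranded columns, and the summary lines entered no library size and no test. GENCODE M21 named 2202 of 2202 gene identifiers. CPM are counts per 1000000 sense counts. Genes with at least 10 counts in both libraries entered an exact binomial test, two-sided (scipy 1.17.1), on TMM-scaled library sizes (edgeR 4.0.16), at an adjusted p of 0.05. Alternatives were other scalings (total counts, DESeq2 1.42.0 size factors), a chi-square test, other detection limits, unstranded counts, other denominators, other pseudocounts and each replicate left out.

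Sequences were compared with Biopython 1.88 and folded with RNAfold 2.7.2. Named genes are the 3 members, genes with the same seed, the nearest miRNA gene of each member, the 3 most alike genes, the highest gene of each comparison family, the 3 highest genes of the chromatin list, and markers. Genes around the loci were named after their positions were seen. The members, lists and tests were chosen with earlier results of these data known. Both samples entered every value, and the shallower library, replicate 1, sets the precision.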

Additional observations from a re-analysis of the deposited data

How the results depend on the processing

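Mir148a and Mir152 kept their direction and their call under all 7 alternatives of scaling, test, detection limit and strand column. Mir148b turned with total-count scaling, from a log2 ratio of -0.07 to 0.24, because that scaling moves all ratios by the same factor, and did not turn under the other 6. Of 271 calls with that scaling, 76 were higher in replicate 1 and 195 in replicate 2, against 131 and 119 of 250 with TMM. Per 1000000 of all reads, the mean levels were 19.8 for Mir148a, 26.6 for Mir148b and 8.61 for Mir152, and without let-7 genes in the denominator they were 89.8, 121.0 and 39.1 CPM. Without replicate 1 and without replicate 2, the levels were 74.8 and 38.3 CPM (Mir148a), 82.2 and 69.4 CPM (Mir148b) and 32.5 and 16.8 CPM (Mir152). The shares were 39.5% and 30.8%, 43.4% and 55.8%, and 17.2% and 13.5% in the same order. A difference between libraries cannot be computed with a replicate left out. No paired analysis was possible because there is 1 group. The lowest count behind a member, 63 for Mir152 in replicate 1, limits its ratio to an interval of 1.16-fold to 2.11-fold.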
